A study of Mus musculus with 8 samples.

Results

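The enzymes that make and break down ganglioside GM3 and its precursor ceramide were examined in sorted splenic B cells of mice that express the human gene HGAL and of wild-type littermates. The group holds 9 genes, Smpd1, Asah1, Ugcg, B4galt5, B4galt6, St3gal5, B4galnt1, St8sia1 and Neu3, of 19937 genes measured by a probe set with a single gene symbol. Each of the 9 had 1 such probe set, so no second probe set could serve as a check. The group was drawn around St3gal5 and Asah1 because of their low values in Sca1-HGAL arrays in earlier results of these data. Their differences are therefore given as a description. Where the outcome of the fit over all probe sets is stated for them, it is no independent test. The other 7 were taken as neighbouring steps of the pathway, also with earlier results of these data known.

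Ceramide is the lipid core of all sphingolipids. Sphingomyelinases release it from sphingomyelin, ceramidases cut it to sphingosine, and a chain of Golgi transferases adds glucose, galactose and sialic acid to it in turn, which gives glucosylceramide, lactosylceramide and GM3. GM3 is the first ganglioside of the chain and the substrate for the larger ones, and gangliosides in the outer leaf of the plasma membrane are known to gather with receptors in lipid-rich microdomains.

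HGAL, also called GCET2, is an adaptor that germinal centre B cells express. In the Sca1-HGAL group it was driven by the Sca1 (Ly-6E.1) promoter, which is active in blood stem and progenitor cells and is not specific to B cells. The genotype field names the mice knock-in and the design text transgenic, and the labels give neither the number of founder lines nor the age beyond adult. The Control group were wild-type littermates, and both groups were of the CBAxC57BL/6J strain. Total RNA of CD22+B220+ cells sorted from spleen was read on Mouse Gene 1.0 ST arrays of Affymetrix, with 4 arrays in each group and 1 array per sample. The labels do not say that each array is a separate mouse, so errors and p-values cover only the spread between samples, which may be technical.

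Values are log2 intensities, and a log2 fold is the Sca1-HGAL mean minus the Control mean with its standard error (SE). Levels of different probe sets are not comparable with each other, and the number of arrays limits the precision. Array medians lay between 145.2 and 151.4 in linear intensity. The sorting marker genes Cd22 and Ptprc were high on all arrays, at 12.61 or more, and so was Cd79a, part of the B-cell receptor, at 13.25 or more. Mouse Gcsam, the counterpart of HGAL, had a log2 fold of -0.29 (SE 0.17), and its probes are no sure measure of the human gene, so HGAL expression itself was not checked. Control replicates 2 and 4 had high Xist (12.17 and 12.18) and low Eif2s3y (4.22 and 3.96), while the other 6 arrays had Xist at 5.65 or less and Eif2s3y at 10.21 or more. High Xist marks female cells, and Eif2s3y lies on the Y chromosome. Control replicates 2 and 4 thus read as female and all other arrays as male. Sex is not given in the labels and was uneven between the groups. Sca1-HGAL replicate 3 correlated better with the Control arrays (mean 0.9926 over probe sets) than with its own group (mean 0.9909). Sca1-HGAL replicate 1 had the lowest mean correlations of all arrays, 0.9876 with Control and 0.9889 with its own group. Values of some enzymes are also given without some of these arrays.

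The start of St3gal5, the member with the lowest log2 fold, is shown beside the starts of 2 neighbours in the pathway. These are B4galt5, an enzyme of the step before it, and St8sia1, an enzyme of a step after it. RefSeq's promoter table (GRCm38.p6, the C57BL/6J reference) held 6 of the 9 genes. It lacked Asah1, B4galt6 and B4galnt1, so the other enzyme before St3gal5 and the GM2 enzyme after it could not be shown. CBA sequence was not used here. Each line gives the 250 bases before the annotated start, 5′ to 3′ on the strand of the gene, at chr6:72097358-72097607 (plus strand) for St3gal5, chr2:167349179-167349428 (minus strand) for B4galt5 and chr6:142964453-142964702 (minus strand) for St8sia1. Capitals mark the GC box GGGCGG and the CCAAT box, on either strand.
St3gal5: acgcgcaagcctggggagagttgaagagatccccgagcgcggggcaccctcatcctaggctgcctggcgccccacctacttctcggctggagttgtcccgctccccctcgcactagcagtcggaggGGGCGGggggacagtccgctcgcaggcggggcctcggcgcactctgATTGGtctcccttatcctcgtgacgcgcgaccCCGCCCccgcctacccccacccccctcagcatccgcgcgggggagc
B4galt5: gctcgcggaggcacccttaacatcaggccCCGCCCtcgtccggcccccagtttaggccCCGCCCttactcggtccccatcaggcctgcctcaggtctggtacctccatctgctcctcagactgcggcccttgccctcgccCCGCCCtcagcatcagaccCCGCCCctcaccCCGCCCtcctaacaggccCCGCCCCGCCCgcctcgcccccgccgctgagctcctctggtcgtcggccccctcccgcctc
St8sia1: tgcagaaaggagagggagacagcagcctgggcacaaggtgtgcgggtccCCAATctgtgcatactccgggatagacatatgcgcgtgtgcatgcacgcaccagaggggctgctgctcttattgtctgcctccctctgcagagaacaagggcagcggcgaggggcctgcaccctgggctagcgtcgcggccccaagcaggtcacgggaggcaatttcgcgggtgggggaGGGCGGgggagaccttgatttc
The St3gal5 window held 2 GC boxes and 1 CCAAT box, the B4galt5 window 7 GC boxes, of which the last 2 overlap, and no CCAAT box, and the St8sia1 window 1 of each. Over all 32851 windows of this length in the table, 32.7% held a GC box and 33.8% a CCAAT box. The E-box CACGTG, present in 6.02% of windows, and the TATA box TATAAA, present in 12.4%, were found in none of the 6 windows. The windows shown were rich in G and C, with 71.6% for St3gal5, 73.2% for B4galt5 and 63.6% for St8sia1. The median over the table was 52.4%. Those not shown had 80.4% (Ugcg), 64.8% (Smpd1) and 49.2% (Neu3). These matches describe the letters only.

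The step that makes GM3 had the lowest log2 fold of the 9 genes, in a gene the group was drawn around. St3gal5 encodes the sialyltransferase that adds sialic acid to lactosylceramide. Its level was 9.04, 9.0, 9.24 and 9.38 in Control replicates 1 to 4 and 7.36, 7.10, 7.58 and 7.26 in Sca1-HGAL replicates 1 to 4. Every Sca1-HGAL array lay below every Control array, with a gap of 1.41 between the nearest arrays of the groups, while the arrays of a group spread over 0.39 in Control and 0.48 in Sca1-HGAL. The means were 9.16 ± 0.18 (SD, n = 4) and 7.33 ± 0.20 (SD, n = 4), a log2 fold of -1.84 (SE 0.12), or a linear intensity 3.57 times as high in Control. The Control arrays with high Xist, at 9.0 and 9.38, lay on both sides of the other Control arrays, and without them the log2 fold was -1.81. Sca1-HGAL replicate 3, which correlated better with the Control arrays than with its own group, was the highest of its group and 1.41 below the lowest Control array. In bulk RNA, fewer cells that express a gene and less RNA per cell cannot be told apart.

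Ceramide breakdown was the other step with low values in Sca1-HGAL arrays. Asah1 encodes the lysosomal acid ceramidase, which cuts ceramide to sphingosine and a fatty acid. It was at 9.75, 9.89, 9.63 and 9.65 in Control arrays and at 9.25, 8.93, 9.15 and 9.06 in Sca1-HGAL arrays. The groups did not overlap, with 0.39 between the nearest arrays, and replicate 2 was the lowest Sca1-HGAL array for Asah1 as for St3gal5. The means were 9.73 ± 0.12 (SD, n = 4) and 9.10 ± 0.14 (SD, n = 4), a log2 fold of -0.64 (SE 0.09) or a linear intensity 1.55 times as high in Control. Without the Control arrays with high Xist the log2 fold was -0.60, and without Sca1-HGAL replicate 3 it was -0.65.

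Of the 9 genes, 1 passed limma over 21640 probe sets at an adjusted p under 0.05, St3gal5, and it was the single probe set called, 0.00462% of those tested. Asah1 did not pass (limma adjusted p = 0.0983). It did without Sca1-HGAL replicate 3 (limma adjusted p = 0.0452, 0.035 to 0.415 over all settings), and without variance sharing between probe sets neither gene passed. At an adjusted p under 0.10 both passed, and 0.0416% of all probe sets did. Both genes were chosen on this comparison, so nothing is read from these calls or from their groups being apart, as 2.3% of all probe sets were with lower values in Sca1-HGAL. Of the other 7 genes, 0 passed, and the groups did not overlap for 1, B4galt6, or 14.3% against 5.45% of all probe sets. It was higher in Sca1-HGAL, as were 3.15% of all probe sets without overlap. These 7 were also chosen with earlier results known, so their share is no independent test.

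**Figure D1:**
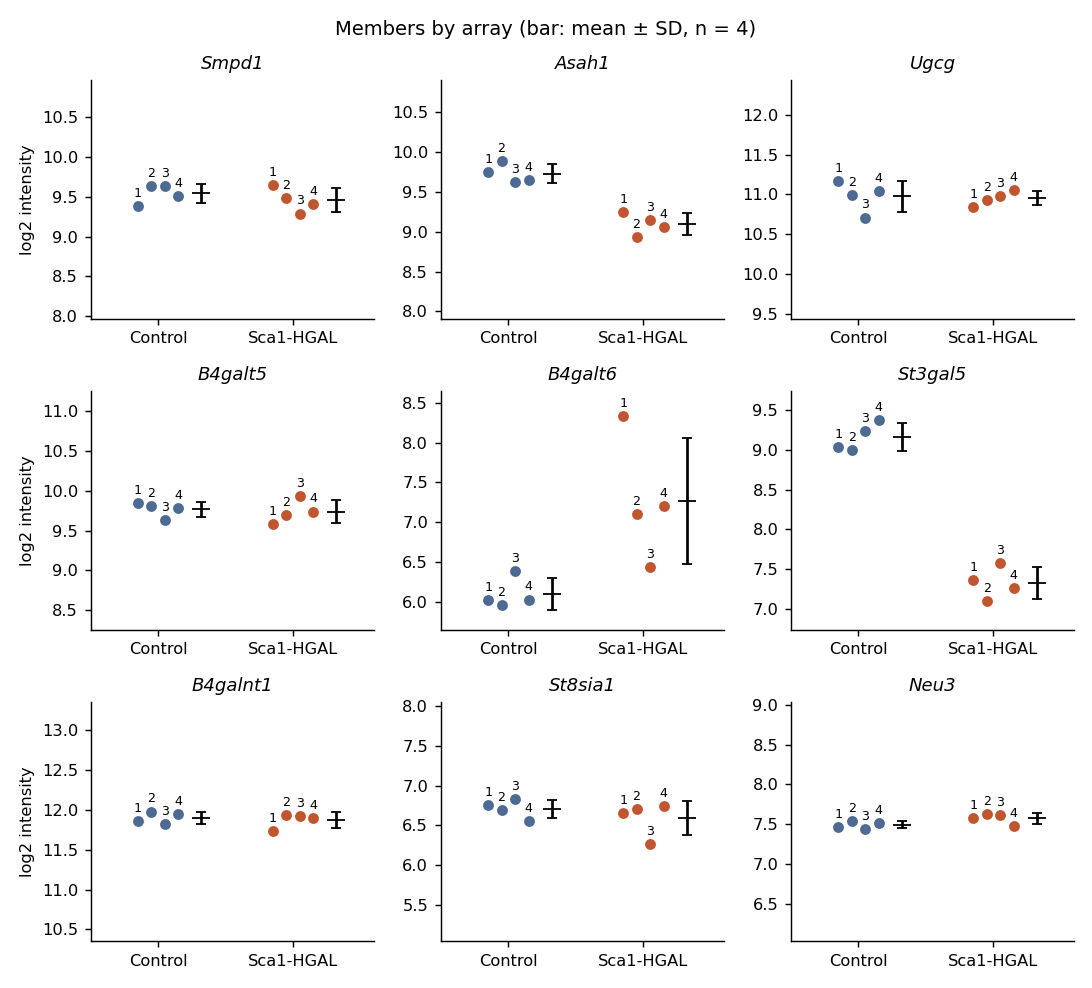
Log2 intensity of the 9 enzymes on each array, with Control in blue and Sca1-HGAL in orange; numbers are replicates and the black bar is the mean ± SD over 4 arrays. Each panel spans the same range of 3 log2 units, and the groups lie apart for St3gal5, Asah1 and B4galt6.

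The release of ceramide from sphingomyelin in lysosomes did not show such a difference. Smpd1, the acid sphingomyelinase, was at 9.39 to 9.64 in Control and at 9.29 to 9.65 in Sca1-HGAL arrays, so the groups overlapped over nearly their whole range. Its log2 fold was -0.09 (SE 0.09), with a 95% interval of -0.28 to 0.11, which leaves out a change as large as that of Asah1.

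The first sugar of the chain is added by Ugcg, the glucosylceramide synthase that commits ceramide to this branch. It was at 11.17, 10.99, 10.71 and 11.04 in Control and at 10.84, 10.93, 10.98 and 11.05 in Sca1-HGAL arrays. All 4 Sca1-HGAL values lay inside the Control range, and the log2 fold was -0.03 (SE 0.10, 95% interval -0.24 to 0.18).

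Lactosylceramide, the direct substrate of St3gal5, is made by either of a pair of galactosyltransferases, and their values differed in kind. B4galt5 was at 9.85, 9.81, 9.63 and 9.78 in Control and at 9.58, 9.70, 9.93 and 9.74 in Sca1-HGAL arrays. These groups overlapped, with a log2 fold of -0.03 (SE 0.08, 95% interval -0.21 to 0.16).

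B4galt6, the other galactosyltransferase of this step, was at 6.02, 5.96, 6.39 and 6.03 in Control and at 8.34, 7.10, 6.44 and 7.20 in Sca1-HGAL arrays. All 4 Sca1-HGAL arrays were above all Control arrays, but the nearest were only 0.05 apart, and the Sca1-HGAL arrays spread over 1.89. The means were 6.10 ± 0.20 (SD, n = 4) and 7.27 ± 0.79 (SD, n = 4), a log2 fold of 1.17 (SE 0.32, 95% interval 0.46 to 1.88). It did not pass limma over all probe sets. Without Sca1-HGAL replicate 1, the highest array, the log2 fold was 0.81, and without replicate 3, the lowest, it was 1.44. Without the Control arrays with high Xist it was 1.06. The Control level was close to log2 6, where probe sets are dim, and without detection calls the size of this difference is uncertain.

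The enzymes that act on GM3 showed small differences. B4galnt1, which turns GM3 into GM2, was at 11.82 to 11.98 in Control and 11.73 to 11.94 in Sca1-HGAL arrays, with a log2 fold of -0.03 (SE 0.07, 95% interval -0.18 to 0.12). St8sia1, which adds a further sialic acid and gives GD3, was at 6.56 to 6.83 in Control and at 6.65, 6.71, 6.27 and 6.74 in Sca1-HGAL arrays. Its log2 fold was -0.12 (SE 0.11, 95% interval -0.36 to 0.12), and Sca1-HGAL replicate 3 alone lay below the Control range. Without that array the log2 fold was -0.01. Neu3, the plasma membrane sialidase that takes sialic acid off GM3 and other gangliosides, was at 7.44 to 7.54 in Control and 7.48 to 7.63 in Sca1-HGAL arrays, with a log2 fold of 0.09 (SE 0.06, 95% interval -0.04 to 0.22). For these 3 enzymes the arrays of the groups overlapped.

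**Figure D2:**
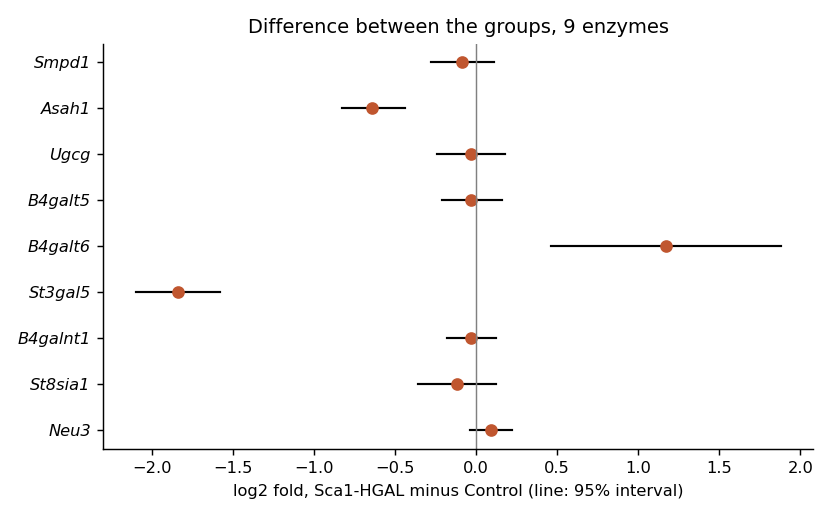
Log2 fold of each enzyme, Sca1-HGAL minus Control, with its 95% interval from limma, in pathway order from ceramide release (Smpd1) to desialylation (Neu3). St3gal5 is at -1.84 and Asah1 at -0.64, B4galt6 has the widest interval (0.46 to 1.88), and the intervals of the other 6 include 0.

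The median log2 fold of the 9 genes was -0.03, against 0.01 over all probe sets tested. Beyond these enzymes, 79 further genes of sphingolipid metabolism and sialylation were measured, in 8 lists by step. None passed limma at an adjusted p under 0.05. At an unadjusted p under 0.05 there were 10, 7 higher and 3 lower, or 12.7% against 9.59% of all probe sets. The groups did not overlap for 5 of the 79, or 6.33% against 5.45%. Both shares are close to the background, and the median log2 fold of the 79 was 0.01.

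Among genes of de novo ceramide synthesis (16 measured, 8 positive and 8 negative, 0 passed, 1 higher and 1 lower at an unadjusted p under 0.05), Degs1, the desaturase of the last step, had the smallest p. It was at 9.95, 9.97, 10.03 and 9.87 in Control and at 10.39, 10.24, 10.08 and 10.42 in Sca1-HGAL arrays. The difference was 0.32 on the log2 scale (SE 0.08, adjusted p = 0.249 by limma). All Sca1-HGAL arrays lay above the Control arrays. The ceramide synthases Cers6 and Cers2 had log2 folds of -0.27 (SE 0.10) and -0.10 (SE 0.06), with overlapping groups.

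Sphingomyelin genes (8 measured, 0 passed, 1 higher and 1 lower at an unadjusted p under 0.05) had differences in both directions. Sgms1, the Golgi sphingomyelin synthase that draws on the same ceramide as Ugcg, was at 10.46, 10.58, 10.60 and 10.51 in Control and at 10.06, 9.89, 10.37 and 10.15 in Sca1-HGAL arrays. Its log2 fold was -0.42 (SE 0.09, adjusted p = 0.19 by limma), the smallest adjusted p of the 79 genes, and the groups did not overlap. Smpd5, a sphingomyelinase, was at 8.24 to 8.56 in Control and 8.61 to 9.08 in Sca1-HGAL arrays, with a log2 fold of 0.46 (SE 0.12, adjusted p = 0.245), again without overlap. Samd8, an enzyme related to the sphingomyelin synthases, had -0.17 (SE 0.10).

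Among ceramidases and enzymes of sphingosine (9 measured, 0 passed, 1 higher and 1 lower at an unadjusted p under 0.05), the neutral ceramidase Asah2 was at 8.46, 8.52, 8.43 and 8.46 in Control and at 8.31, 8.28, 8.20 and 8.23 in Sca1-HGAL arrays. The log2 fold of -0.21 (SE 0.06, limma adjusted p = 0.261) was smaller than that of Asah1, with groups that did not overlap either. Sgpp1 and Sgpp2, which take the phosphate off sphingosine-1-phosphate, had 0.17 (SE 0.07) and 0.14 (SE 0.09).

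Among complex ganglioside and other glycosphingolipid genes (15 measured, 0 passed, 2 higher and 0 lower at an unadjusted p under 0.05), St3gal1, a sialyltransferase of O-glycans, had a log2 fold of 0.24 (SE 0.10). A second St3gal1 probe set had 0.18. St8sia5, a dim probe set with a mean under log2 6, had 0.17 (SE 0.07) and St6galnac6 0.17 (SE 0.10).

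Among lysosomal genes of glycosphingolipid breakdown (11 measured, 0 passed, 0 at an unadjusted p under 0.05), Gla, the alpha-galactosidase, had the lowest log2 fold, -0.66 (SE 0.32, limma adjusted p = 0.554). It was at 8.06 and 8.18 in Sca1-HGAL replicates 1 and 2 but at 9.54 and 9.22 in replicates 3 and 4, which lay inside the Control range of 8.94 to 9.68. Without replicate 1 the log2 fold was -0.43, and without replicate 3 it was -0.92. Galc had 0.17 (SE 0.08) and Glb1, the beta-galactosidase, -0.15 (SE 0.10).

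Genes that supply the sialic acid donor had small differences. Of the 8 genes of sialic acid and sugar donor supply, 0 passed and 0 had an unadjusted p under 0.05, and log2 folds ran from -0.12 to 0.10. Nans, which makes sialic acid phosphate, had 0.09 (SE 0.07), Cmas, which activates sialic acid, -0.12 (SE 0.13), and Ugp2, which makes UDP-glucose, 0.10 (SE 0.08).

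Sialyltransferases of other substrates (8 measured, 0 passed, 2 higher and 0 lower at an unadjusted p under 0.05) did not have the low values of St3gal5. Their log2 folds ran from -0.02 to 0.57. St6gal1, which makes the sialylated ligand of CD22 and was singled out after its values were seen, had 0.01 (SE 0.07, 95% interval -0.15 to 0.17). St8sia6 had 0.57 (SE 0.23, limma adjusted p = 0.465), with Sca1-HGAL arrays at 10.57, 9.99, 9.21 and 9.99 and Control arrays at 9.23 to 9.44. As for B4galt6, replicate 1 was the highest and replicate 3 the lowest of the Sca1-HGAL arrays. The log2 fold of St8sia6 was 0.36 without replicate 1 and 0.81 without replicate 3. St6gal2, a dim probe set under log2 6, had 0.19 (SE 0.07) and St3gal3 0.06 (SE 0.07).

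The sphingolipid transfer proteins (4 measured, 0 passed and 0 at an unadjusted p under 0.05) had log2 folds of 0.20 (SE 0.13) for Plekha8, which carries glucosylceramide, 0.15 (SE 0.18) for Cptp and -0.09 (SE 0.13) for Cert1, which brings ceramide to the Golgi.

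**Figure D3:**
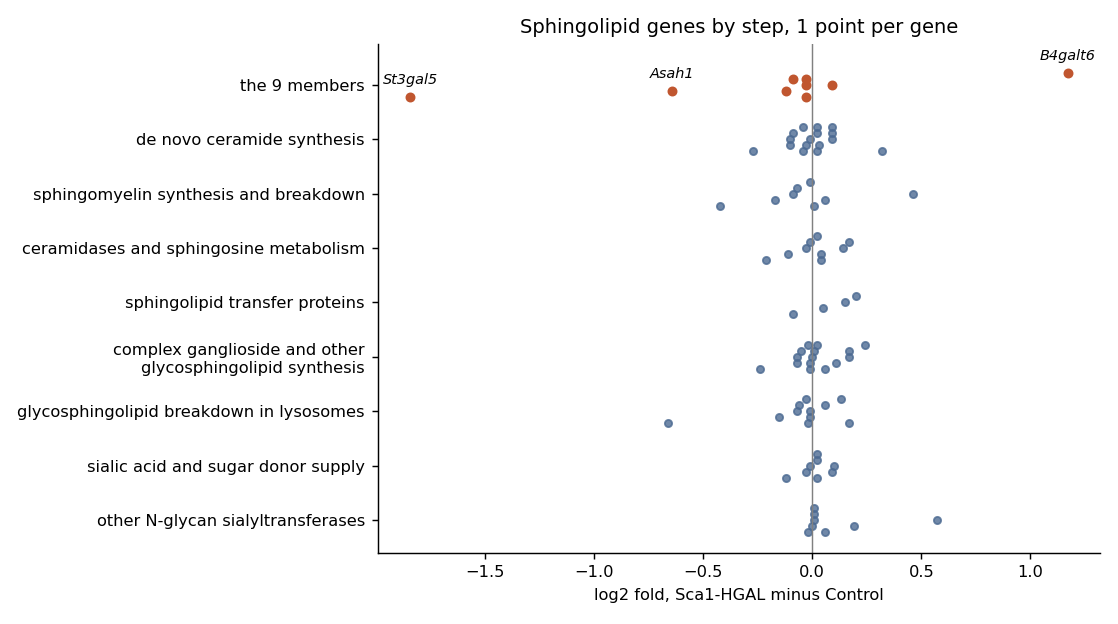
Log2 fold, Sca1-HGAL minus Control, of the 9 members (orange) and of 79 further sphingolipid and sialylation genes (blue) by step, 1 point per gene with vertical offsets for legibility only. The blue points lie between -0.66 and 0.57, with a median of 0.01, and St3gal5 and B4galt6 lie outside that range.

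Because the mice were of mixed strain, the genes next to St3gal5 and Asah1 along the chromosome were read as well. Of the 10 measured genes flanking St3gal5 on chromosome 6, 5 on each side by order in GRCm38.p6, 0 passed limma and 1 had an unadjusted p under 0.05, against 9.59% of all probe sets. That gene was Mrpl35, of the mitochondrial ribosome, which was at 8.53 to 8.72 in Control and 8.86 to 9.09 in Sca1-HGAL arrays, a difference of 0.36 on the log2 scale (SE 0.07, adjusted p = 0.13 by limma). The other 9 had log2 folds of 0.11 or less in size, among them the nearest on each side, Polr1a at 0.07 (SE 0.08) and Atoh8 at 0.11 (SE 0.08). Groups did not overlap for 2 of the 10, against 5.45% of all probe sets. These were Mrpl35 and Usp39, a splicing factor named after its values were seen. Usp39 was at 10.30 to 10.36 in Control and 10.23 to 10.30 in Sca1-HGAL arrays, and the nearest arrays were equal at this rounding. The 10 genes flanking Asah1 on chromosome 8 had log2 folds from -0.20 to 0.16. Of these 0 passed and 1 had an unadjusted p under 0.05, the nearest neighbour Pcm1 at -0.20 (SE 0.08, adjusted p = 0.459), a centrosome gene, and the groups overlapped for all 10. Alleles were not measured.

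**Figure D4:**
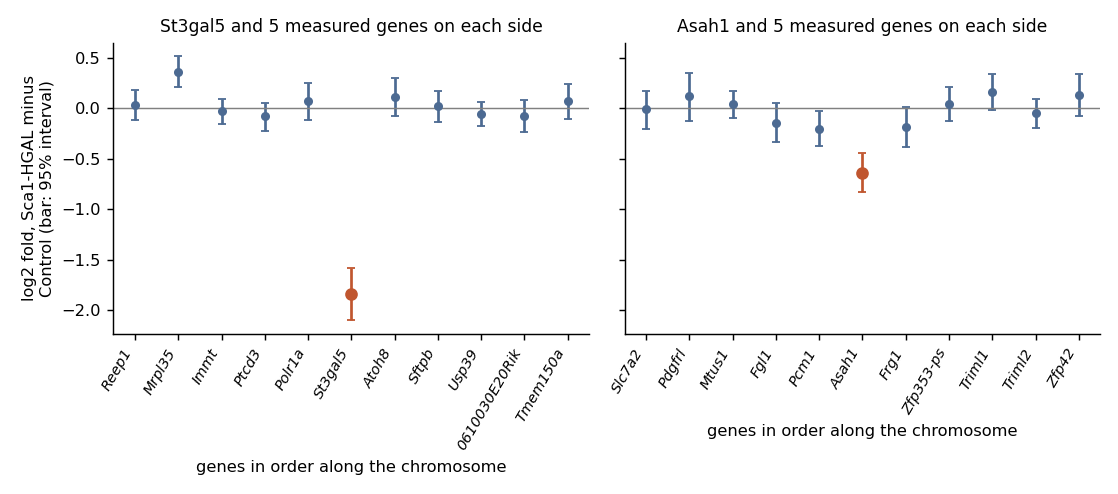
Log2 fold, Sca1-HGAL minus Control, with its 95% interval from limma, of St3gal5 and Asah1 (orange) and the 5 measured genes on each side (blue) in chromosome order; distances are not to scale. St3gal5 at -1.84 stands below its neighbours, which lie between -0.08 and 0.36.

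Of the genes ranked, those whose pattern over the 8 arrays was most like that of St3gal5 were Ifi206, Ifi208, Ifi213, Edaradd and Cecr2. Genes whose symbols begin with Gm and a digit or end in Rik were not ranked. Likeness was the root mean square distance between log2 values, each gene centred on its own Control mean, which mostly ranks genes by their difference between the groups. The distances ran from 0.47 for Ifi206 to 0.55 for Cecr2, against 0.87 for Asah1 and a median of 1.32 over 18709 genes. None of the 5 belongs to sphingolipid metabolism, and 3 are members of the interferon-inducible Ifi200 family. Ifi206 differed from St3gal5 on Sca1-HGAL replicate 3, where it was at 8.66, next to its lowest Control value of 8.70, while the other Sca1-HGAL arrays were at 7.09 to 7.35.

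The mean levels of the marginal zone list and of the list for B-1 and age-associated B cells did not overlap between the groups, and their part in the values of St3gal5, Asah1 and B4galt6 was not tested. Of 13 marginal zone B genes 11 had a negative log2 fold and 0 passed limma, with 8 at an unadjusted p under 0.05, all lower, against a background of 4.06%. The mean level of the list was 9.99 to 10.38 in Control and 9.67 to 9.94 in Sca1-HGAL arrays. All 14 genes of the list for B-1 cells and age-associated B cells had a positive log2 fold, 0 passed, and 12 had an unadjusted p under 0.05, against a background of 5.53% higher. Their mean level was 7.99 to 8.20 in Control arrays and 9.45, 9.26, 8.31 and 8.79 in Sca1-HGAL replicates 1 to 4. These lists were set with earlier results known, so their direction is no independent evidence. Fcrl5 was in both. Sca1-HGAL replicate 3 had the lowest mean level of its group in both lists.

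**Figure D5:**
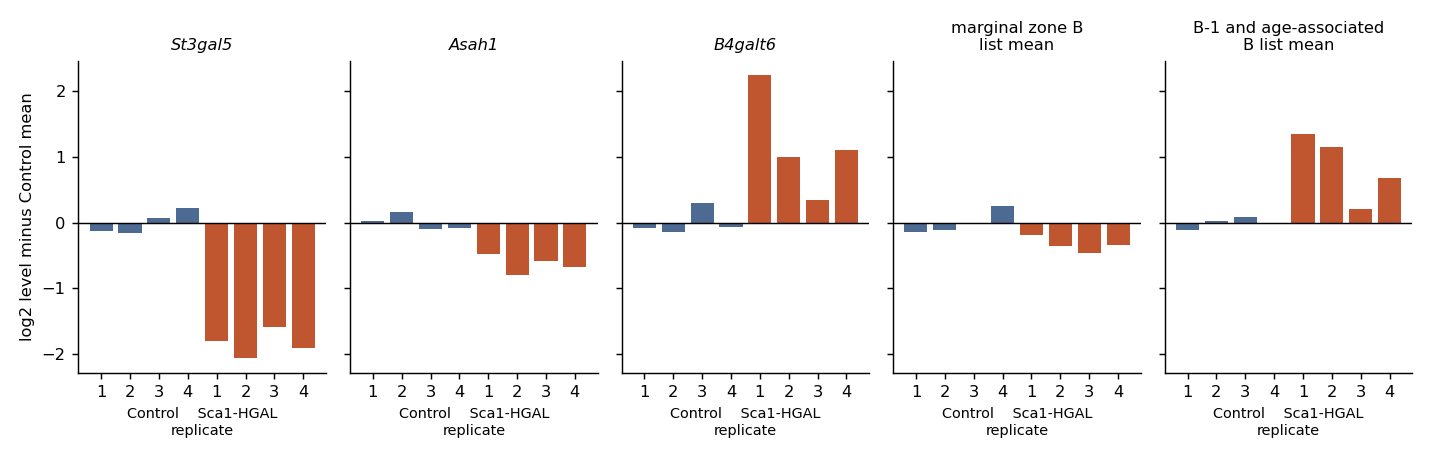
Level of St3gal5, Asah1 and B4galt6 and mean level of the marginal zone B (13 genes) and B-1 and age-associated B (14 genes) lists on each array, in log2 units minus the mean of the 4 Control arrays; blue bars are Control and orange bars Sca1-HGAL replicates 1 to 4. All 4 Sca1-HGAL bars are below 0 for St3gal5, Asah1 and the marginal zone list and above 0 for B4galt6 and the B-1 and age-associated list.

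Markers of other cells that a sort could hold were read in the same way, and none of the genes passed. At an unadjusted p under 0.05, over all probe sets, 5.53% were higher and 4.06% lower. The groups did not overlap for 5.45% of all probe sets. All 15 neutrophil genes had a positive log2 fold, and 6 were higher at that p, with 2 (13.3%) not overlapping. Their median was 0.36, with mean levels of 6.10 to 6.63 in Control and 6.23 to 7.29 in Sca1-HGAL arrays, highest in replicate 1. Of 10 plasmacytoid dendritic cell genes 1 was higher and 3 were lower at that p, with 3 (30.0%) not overlapping. The list had a median of -0.11 and mean levels of 9.52 to 9.85 and 9.40 to 9.60. Its higher gene, named after its values were seen, was Tlr9, at 11.57 or more on all arrays. Of 15 macrophage and monocyte genes 1 was higher, with a median of -0.01 and mean levels of 7.27 to 7.67 and 7.25 to 7.74. That gene, named after its values were seen, was Adgre1, which encodes the macrophage marker F4/80, at 7.54 to 8.14 in Control and 8.55 to 9.36 in Sca1-HGAL arrays. Its log2 fold was 1.01 (SE 0.19, limma adjusted p = 0.122), and the groups did not overlap.

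The 9 plasma cell genes, 1 higher and 2 lower at that p, had a median of -0.05 and mean levels of 8.83 to 9.17 in Control and 8.77 to 9.40 in Sca1-HGAL arrays. The 11 NK cell genes, 1 higher and 2 lower, had -0.11, with 6.17 to 6.65 and 6.02 to 6.61. The higher gene was Tbx21, which was also in the B-1 and age-associated list. The 13 T cell genes, 0 at that p, had 0.04, with 7.35 to 7.73 and 6.92 to 8.04. Cd5 was in this list and in the B-1 and age-associated list. The 7 erythroid genes, 1 lower, had -0.20, with 7.5 to 8.42 and 7.57 to 7.84. The 6 follicular B genes, 2 lower, had -0.18, with 11.11 to 11.31 and 10.80 to 11.18. The 8 B-cell identity genes, 0 at that p, were at 12.77 to 12.83 and 12.71 to 12.76. Apart from the marginal zone, B-1 and age-associated and B-cell identity lists, mean levels overlapped between the groups. Some genes were in more than 1 list, so a listed gene need not mark only the cell named. Whether these cells add to the values of the enzymes was not tested.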

How the data were processed

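Titles gave groups and replicate numbers. The authors' deposited linear intensities were made with RMA (background correction, normalisation between arrays, summary of probes), per the submitters' processing notes. Its version and annotation are not stated there. RMA removes a change shared by most genes and shrinks folds of dim probe sets. Values were turned to log2, with no pseudocount and no filter. Of 34760 probe sets, the platform table gave 21640 a single symbol, 1321 several symbols, and left 11799 unlisted. Those with a single symbol entered a 2-group fit in limma 3.58.1 (R 4.3.3; lmFit, eBayes), two-sided with Benjamini-Hochberg adjustment. A gene was represented by its probe set with the highest mean over 8 arrays. RefSeq's table (GRCm38.p6) gave symbols and gene order. No 2 arrays shared more than 0.0604% of equal values. The fit was tested on simulated data. The replicate numbers are not said to pair the arrays, so the arrays were not paired in the main fit.

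The members and lists were chosen with earlier results of these data known. Named were all 9 members, up to 3 genes of smallest p in each pathway list, flanking genes with an unadjusted p under 0.05 and the 5 patterns most like St3gal5. Other genes are named as checks, as nearest neighbours, as shared between marker lists or as singled out after their values were seen. Alternatives were other scalings, filters, weights, a replicate block, priors, the mean of probe sets, all rows, another threshold, leaving out arrays, Xist as a covariate and, added after seeing the data, no variance sharing.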

Additional observations from a re-analysis of the deposited data

Results flagged for a closer look

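Of 80 groups of 4 values checked, for the enzymes, the pathway genes and flanking genes named and the 5 patterns most like St3gal5, 6 had a single array far from its 3 group mates, where chance gives about 4. B4galt6 was at 6.39 in Control replicate 3, with the other Control arrays at 5.96 to 6.03. Sca1-HGAL replicate 3 was at 6.44, with the others of its group at 7.10 or more. The narrow gap between the groups thus rests on both arrays. Sca1-HGAL replicate 1 was highest for Cers2 (11.27, others 11.16 to 11.17) and Cmas (9.08, others 9.0) and lowest for Samd8 (8.65, others 8.87 to 8.89). Sca1-HGAL replicate 2 was highest for St3gal3 (9.73, others 9.52 to 9.55). Ifi206 was at 8.66 in Sca1-HGAL replicate 3, with the others at 7.09 to 7.35.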

How the results depend on the processing

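St3gal5 kept its direction in all 20 settings, with log2 folds of -1.92 to -1.74, and passed in 19. Without variance sharing, chosen after seeing the data, it had -1.84 with an adjusted p of 0.165 by an ordinary t-test. In that setting 0 probe sets and 0 members passed. Asah1 passed in 2 of 20, and B4galt6 in 0. The probe sets called, 1 in the report, were 12 with array weights, 6 with the replicate block, 2 when probe sets were averaged per gene, 2 without Control replicates 2 and 4, and 9 at an adjusted p under 0.10. Leaving out single arrays gave 1 to 40, the 40 without Sca1-HGAL replicate 3. Members called were 2 with array weights and 2 at an adjusted p under 0.10, and 1 to 2 when leaving out single arrays. No pathway or flanking gene was called in any setting. The replicate block left St3gal5 at -1.84 (adjusted p = 0.00823); same-numbered arrays had correlations of deviations of -0.16 to 0.053, and the block changed no call among the 9 enzymes, the 79 pathway genes or the 20 flanking genes. Of 698 pairs of a gene and a setting, 16 changed sign, all in genes that were not called. B4galnt1 had 0.01 after a second quantile normalisation and 0.03 both without Control replicates 2 and 4 and with Xist as a covariate. In the last 2 settings Ugcg had 0.01, Cmas 0.12 and St3gal3 -0.01. Leaving out single arrays gave ranges of -0.12 to 0.03 for Ugcg, -0.09 to 0.03 for B4galt5, -0.06 to 0.02 for B4galnt1, -0.04 to 0.27 for Cptp and -0.21 to 0.01 for Cmas. The cause was not tested. With 4 arrays a group and no detection calls, small changes and dim levels such as that of B4galt6 in Control are not resolved.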
